A study of Mus musculus with 6 samples.

Results

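Bone morphogenetic protein (BMP) signaling was examined at the RNA level in the growth plate of mice that lack Hnrnpk in cartilage, through 10 genes of the pathway: the ligands Bmp2 and Bmp6, the receptors Bmpr1a, Bmpr1b and Bmpr2, the response genes Id1, Id2 and Id3, and the inhibitory Smads Smad6 and Smad7. The 10 genes were taken by symbol from the 15803 genes of the expression table, and all 10 were present. RNA-seq had been made from growth plate cartilage of E18.5 embryos of both sexes, with 3 libraries labelled WT and 3 labelled CKO. Both groups carried Hnrnpk fl/fl, in which loxP sites flank part of the gene. CKO embryos also carried Col2a1-Cre, which drives Cre in cells that express Col2a1, chiefly chondrocytes. Cells of the tissue in which Cre was never active keep Hnrnpk. WT embryos were littermates without Cre. Whether each library came from 1 embryo or from a pool is not given in the sources used here, so the p-values measure the spread between these 6 libraries, which may be technical.

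The libraries held between 1153871 and 1454094 reads on genes, so 1 read was worth 0.688 to 0.867 CPM, counts per 1000000 reads on genes. Hnrnpk itself was at 842, 955 and 944 CPM in WT and at 759, 949.9 and 780.0 CPM in CKO. These ranges overlapped (log2 fold change -0.14, SE 0.15, limma adjusted p = 0.622). A count over the whole gene includes exons that Cre does not remove, and reads on the removed exons were not examined. For these libraries the genotypes therefore rest on the labels. The study reported loss of Hnrnpk protein in E15.5 CKO growth plates by western blot and immunostaining, at another age than these libraries. The CKO 2 library stood apart. It lay at -61.0 on the second principal component, which held 26.2% of the variance, against 24.7 and 27.6 for CKO 1 and CKO 3, and its correlation with them across genes was 0.924 and 0.921, compared with 0.965 between those 2. WT 3 stood apart less, with correlations of 0.937 and 0.938 with WT 1 and WT 2, which correlated at 0.965. Ibsp, a bone matrix gene chosen after its values were seen, was at 83.0 CPM in CKO 2, compared with 708 CPM in CKO 1 and 808 CPM in CKO 3. Where CKO 2 decided a limma call of a BMP pathway gene named here, the value without it is also given. The same holds for a pathway gene that met the criterion of the study, described below, only with CKO 2. For cell marker genes such as Ibsp, no value without CKO 2 is given.

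BMP ligands are secreted dimers that bring together type II and type I receptor kinases. The type II receptor activates the type I receptor, which phosphorylates Smad1, Smad5 and Smad9. These enter the nucleus with Smad4 and raise transcription of Id1, Id2 and Id3, small helix-loop-helix proteins without a DNA-binding region that hold E proteins away from DNA, and of Smad6 and Smad7, which feed back on the receptors. In the growth plate the pathway is known for its part in forming cartilage and in moving chondrocytes toward hypertrophy.

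Promoter windows, from 250 bases before the RefSeq transcription start to 50 bases after it, are shown for Id3, which rose in CKO, and Id2. Id2 is a gene of the same family whose ratio to the WT mean was below that of Id3 in every CKO library. In GENCODE M21 both genes begin further upstream, so the windows lie inside the annotated genes. The sequences are those of RefSeq on GRCm38.p6, where 7 of the 10 genes matched an entry; Bmp2, Id1 and Smad7 did not. They were searched on both strands for GGCGCC and CAGAC, letters that Smad proteins are known to bind, and capitals mark the matches. The Id3 window is chr4:136143572-136143871 on the plus strand and the Id2 window is chr12:25096043-25096342 on the minus strand, each written 5′ to 3′ along its gene.
Id3: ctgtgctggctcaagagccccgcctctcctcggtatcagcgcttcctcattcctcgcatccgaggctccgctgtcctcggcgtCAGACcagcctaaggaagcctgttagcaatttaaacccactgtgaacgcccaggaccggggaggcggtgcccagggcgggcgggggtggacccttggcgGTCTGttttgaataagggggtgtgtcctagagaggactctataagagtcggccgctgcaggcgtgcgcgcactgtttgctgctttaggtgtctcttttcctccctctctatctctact
Id2: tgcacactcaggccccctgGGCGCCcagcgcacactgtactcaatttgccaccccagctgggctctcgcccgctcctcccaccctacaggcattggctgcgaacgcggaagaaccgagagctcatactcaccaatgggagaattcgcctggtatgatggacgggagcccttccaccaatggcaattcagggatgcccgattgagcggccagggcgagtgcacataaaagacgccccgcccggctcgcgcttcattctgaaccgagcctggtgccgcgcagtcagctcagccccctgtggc
The Id3 window held CAGAC on both strands (the second match reads GTCTG) and no GGCGCC, while the Id2 window held 1 GGCGCC and no CAGAC. Among 32544 promoter windows of this length, 11.9% held GGCGCC and 49.5% held CAGAC, so both sets of letters are common and a match is a description only.

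All 10 genes were among the 12155 tested (mean of at least 1 CPM). The comparison asked whether RNA of BMP receptors, ligands and response genes differed when Hnrnpk was deleted in cartilage. By limma on log2(CPM + 1) with Benjamini-Hochberg adjustment, 1 of the 10, Id3, passed an adjusted p of 0.05 as higher in CKO, against 3.18% of all genes tested, and 0 passed as lower, against 2.60%. DESeq2 on the recovered reads called Id1 and Id3 higher and 0 lower, against 340 higher and 297 lower of all 15793 genes it tested. The quasi-likelihood test of edgeR with TMM called Id3 alone, as higher, among the 4 of these genes that it tested. Over all 7704 genes it called 374 higher and 363 lower. At an unadjusted p under 0.05 limma had 4 higher and 0 lower, against 11.2% and 10.1% of all genes. The criterion of the study, more than 1 unit of log2 fold change in either direction with an unadjusted p under 0.05, was met by Id1, Id3 and Smad7 as higher, against 5.30% of all genes, and by 0 as lower, against 5.10%. In 4 of 10 genes, Id1, Id2, Id3 and Smad7, every CKO library was above every WT library, which was the case for 14.5% of all genes, and in 0 of 10 was every CKO library below, against 13.2%. The median log2 fold change of the 10 was 0.81, compared with 0.013 over all genes tested. The 10 were chosen with earlier results of these data known, which limits every comparison with all genes. By role, the median was 1.38 for the Id genes, 1.07 for the inhibitory Smads, 0.079 for the type I receptors and -0.38 for the ligands. Bmpr2 was at 0.83. Since this is bulk RNA, more cells of a type and more RNA per cell cannot be told apart.

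**Figure D1:**
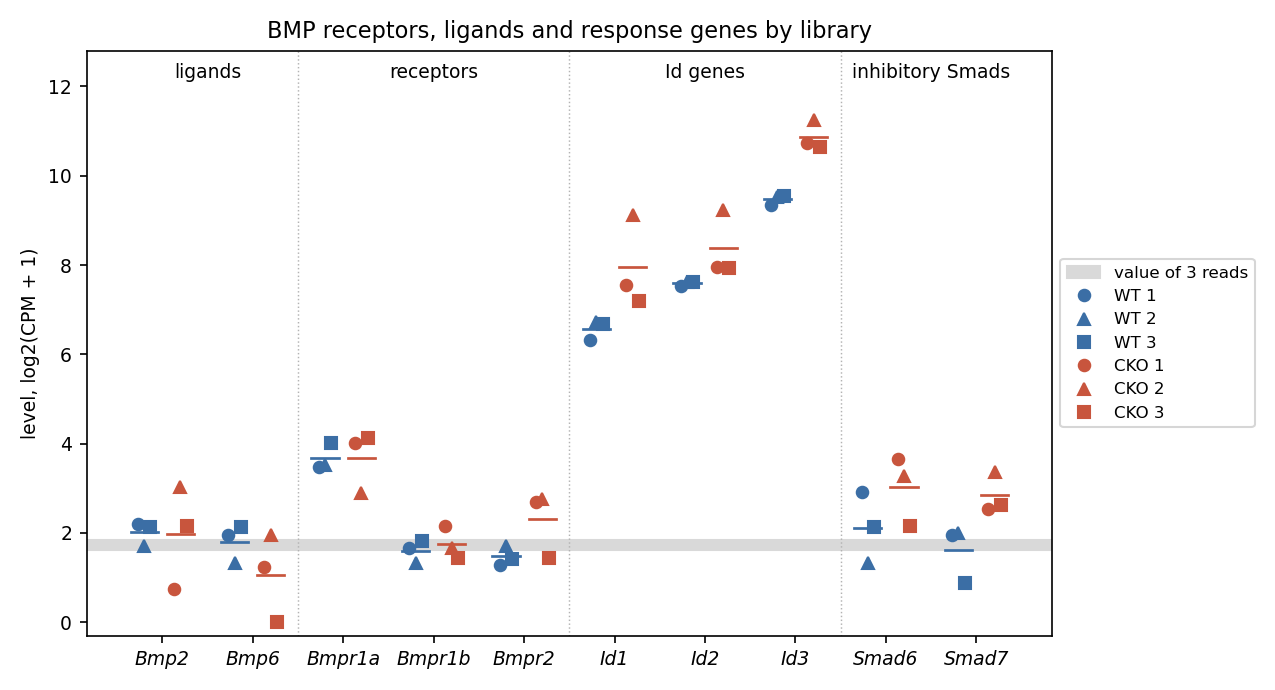
Level of each of the 10 genes in each library, as log2(CPM + 1), with 1 point per library, WT in blue and CKO in red, short lines at the group means and a gray band at the value of 3 reads. Id3 is the highest gene in every library, from 649 to 2416 CPM, while the receptors, ligands and inhibitory Smads are at most at 16.5 CPM.

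The Id genes held nearly all of the reads counted on the 10 genes. On GRCm38 (GENCODE M21), Id1 lies at chr2:152736251-152737410 on the plus strand, Id2 at chr12:25093799-25097140 on the minus strand and Id3 at chr4:136143497-136145755 on the plus strand. Id3 was at 649, 739 and 748 CPM in WT and at 1693, 2416 and 1595 CPM in CKO, or 712 ± 54.4 against 1901 ± 448 CPM (mean ± SD, n = 3 each). The groups were well separated, with every CKO library above 2 times the WT mean. The log2 fold change was 1.39 (SE 0.18, 95% interval 1.0 to 1.79, limma adjusted p = 0.00263), which placed Id3 in position 50 of 12155 by p-value, and in position 119 by mean level. Id3 passed in all 13 alternatives run, including without CKO 2 (1.21).

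Id1 is the family member most widely used as a readout of BMP receptor activity. It was at 79.0, 104 and 102 CPM in WT and at 186, 557 and 145 CPM in CKO. All CKO libraries were above all WT libraries, but CKO 2 was far above the other two. The log2 fold change of 1.38 (SE 0.41, 95% interval 0.48 to 2.28) met the criterion of the study and did not pass after adjustment (limma adjusted p = 0.0790). Without CKO 2 the difference was smaller and its spread smaller too, with a log2 fold change of 0.79 and a limma adjusted p of 0.0221.

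Id2 was at 183, 194 and 197 CPM in WT and at 248, 599.8 and 244 CPM in CKO. As for Id1, the groups did not overlap and CKO 2 was the highest library by a wide margin. The log2 fold change was 0.79 (SE 0.30, 95% interval 0.12 to 1.45, limma adjusted p = 0.162), it passed in 0 of 13 alternatives, and without CKO 2 it was 0.36. For each of these 3 genes, the exact permutation test over libraries gave p = 0.1, the smallest that 3 against 3 allows. Reads of Id2 could be shared with Gm6175, the only near-identical copy found for any of the 10 genes.

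**Figure D2:**
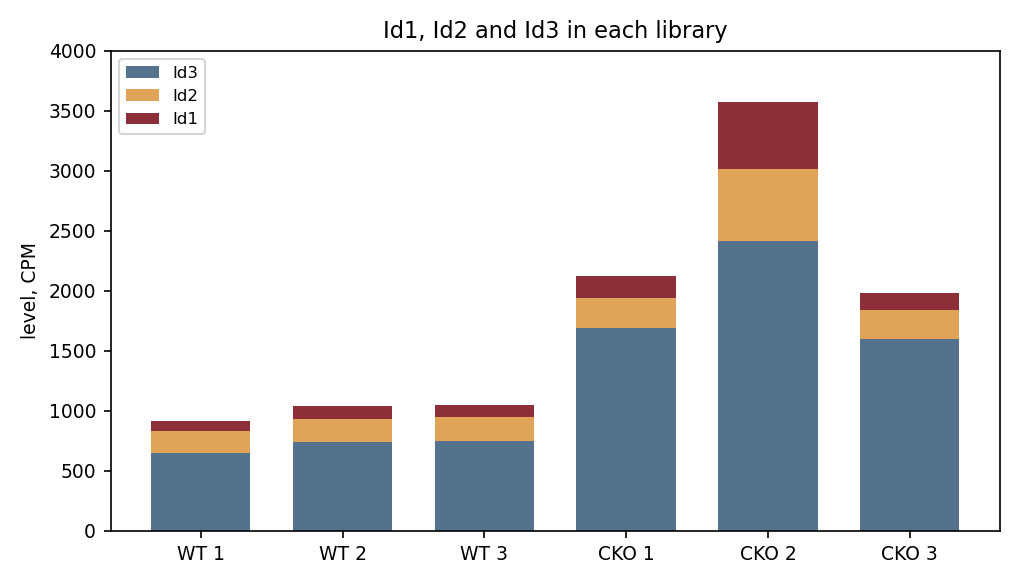
Stacked bars of Id3, Id2 and Id1 in CPM for each of the 6 libraries, starting at 0. The summed level was between 912 and 1047 CPM in WT and was 2126, 3573 and 1985 CPM in CKO 1, CKO 2 and CKO 3, with Id1 and Id2 thickest in CKO 2.

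The makeup of the Id pool differed between libraries as well as its size. The CPM ratio of Id2 to Id3 was 0.282, 0.263 and 0.263 in WT and 0.146, 0.248 and 0.153 in CKO, lower in every CKO library (exact two-sided permutation p = 0.1, the smallest possible, and 0.2 after adjustment over 2 ratios). The ratio of Id1 to Id3 was 0.122, 0.141 and 0.137 in WT and 0.110, 0.231 and 0.0907 in CKO. In that ratio CKO 2 lay above WT and the other CKO libraries lay below it (exact two-sided permutation p = 1). Set against the WT mean, Id3 was 2.38, 3.39 and 2.24 times as high in CKO 1, CKO 2 and CKO 3, whereas Id1 was 1.95, 5.85 and 1.52 times and Id2 1.29, 3.13 and 1.28 times as high.

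The inhibitory Smads were measured with few reads. Smad7, which blocks both BMP and TGF-β receptors, had 4, 4 and 1 reads in WT and 7, 13 and 6 in CKO, or 2.90, 3.0 and 0.845 CPM against 4.81, 9.38 and 5.20 CPM. The groups did not overlap, and the ratio of pooled reads per total was 2.82 with a 95% counting interval of 1.28 to 6.84. Its log2 fold change of 1.23 (SE 0.47, 95% interval 0.18 to 2.28, limma adjusted p = 0.165) met the criterion of the study, and fell below its fold limit without WT 3 (0.87) and without CKO 2 (0.97).

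Smad6, which acts mainly on the BMP branch, was at 6.52, 1.5 and 3.38 CPM in WT and at 11.7, 8.66 and 3.47 CPM in CKO. CKO 3 lay inside the WT range. The log2 fold change was 0.91 (SE 0.54, 95% interval -0.28 to 2.10, limma adjusted p = 0.360), from 15 WT and 33 CKO reads, and ran from 0.51 (without WT 2) to 1.35 (without CKO 3) when 1 library was left out. Smad6 met the criterion of the study without CKO 3 and without WT 1 (1.31).

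None of the 3 receptors passed by limma or DESeq2, and none had an unadjusted limma p under 0.05. Bmpr1a, a type I receptor with a broad role in cartilage, was the highest of them, per kb of exon as well, at 10.1, 10.5 and 15.2 CPM in WT and at 15.1, 6.50 and 16.5 CPM in CKO. The groups overlapped widely, and the 95% interval of the log2 fold change, -0.85 to 0.86, leaves room for a difference in either direction. Its exons overlap 290 bases of the antisense gene Gm17110, and the strand setting of the counting is not given in the sources used here. Bmpr1b, the other type I receptor, which marks cartilage condensations, had 8 reads in WT and 10 in CKO. Its counting interval of 0.433 to 3.56 around a ratio of 1.22 leaves room for a change in either direction at this depth.

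Bmpr2, the type II receptor, was at 1.45, 2.25 and 1.69 CPM in WT and at 5.5, 5.77 and 1.73 CPM in CKO. CKO 1 and CKO 2 lay above WT, and CKO 3 lay at the WT level. The ratio of pooled reads, 7 against 18, was 2.51 with a counting interval of 1.0 to 7.11 (limma adjusted p = 0.360). Summed over the 3 receptors, 13.8, 14.3 and 19.4 CPM in WT stood against 24.1, 14.4 and 19.9 CPM in CKO, with overlap.

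The 2 ligands were near the limit of detection. Bmp2, which promotes chondrocyte maturation, had 12 reads in WT and 15 in CKO, of which 10 were in CKO 2. Its mean CPM was higher in CKO (3.79 ± 3.28 against 3.08 ± 0.732, n = 3 each) while its log2 fold change was -0.03 (95% interval -1.32 to 1.26, limma adjusted p = 0.984), so no direction can be given. Bmp6, a ligand made by hypertrophic chondrocytes, had 10 reads in WT and 6 in CKO and 0 in CKO 3, which allows a level of up to 2.60 CPM there. Its ratio of 0.585 had a counting interval of 0.175 to 1.78, and its exons share 224 bases with Txndc5 on the opposite strand.

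**Figure D3:**
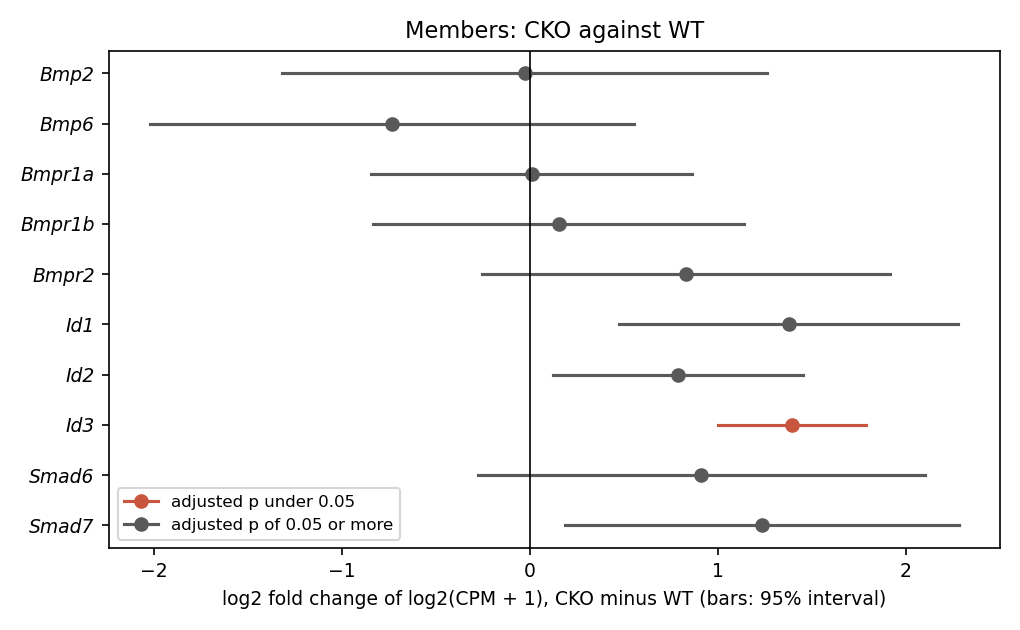
Log2 fold change of log2(CPM + 1), CKO minus WT, for each of the 10 genes, with its 95% interval as a bar. The intervals of Id1, Id2, Id3 and Smad7 lie above 0, and that of Id3 is the narrowest, from 1.0 to 1.79.

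Levels were compared between genes as CPM per kb of annotated exon, a scale on which a gene with long rare isoforms is understated. In WT, Id3 stood at 398 ± 30.4, Id1 at 82.1 ± 12.1 and Id2 at 78.6 ± 2.94 CPM per kb (n = 3). All other members were below 2 CPM per kb, in the order Bmpr1a (1.88), Smad6 (1.19), Bmp2 (0.868), Bmp6 (0.665), Smad7 (0.497), Bmpr1b (0.347) and Bmpr2 (0.0999). Between neighbors in this order, the WT ranges were apart only from Id3 to Id1, from Id2 to Bmpr1a and from Bmpr1b to Bmpr2. In CKO, Id3 reached 1062 CPM per kb, and Smad6 (2.48) and Bmpr1a (2.0) overlapped, with ranges of 1.08 to 3.65 and 1.02 to 2.59 CPM per kb.

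**Figure D4:**
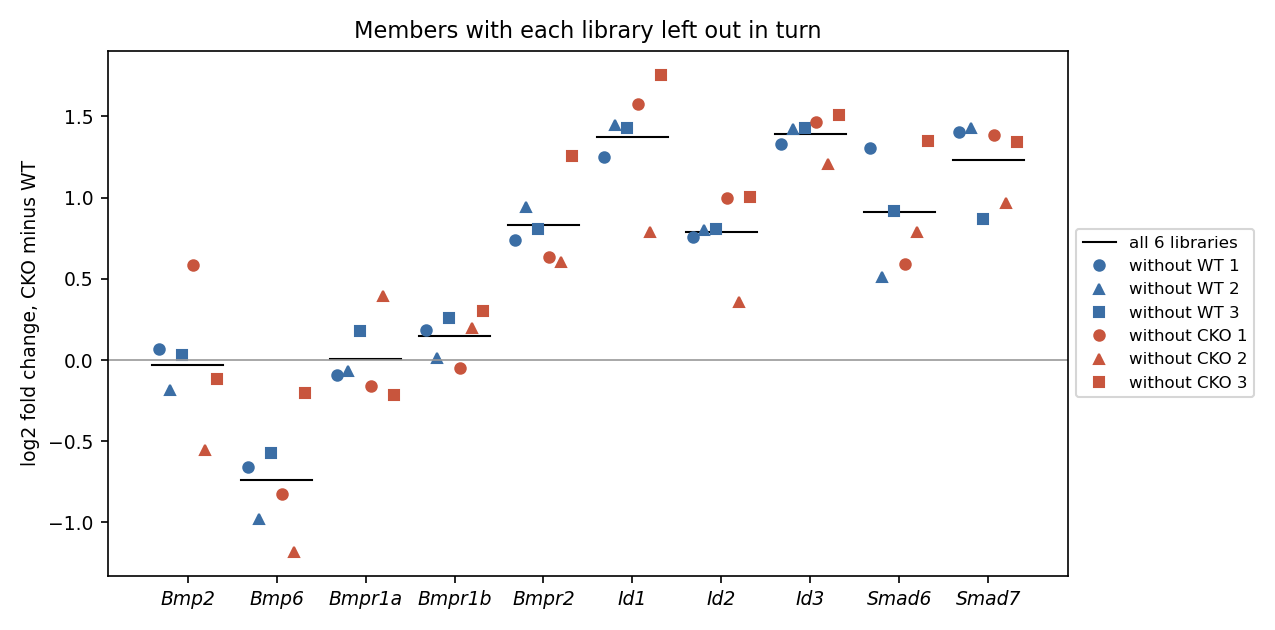
Log2 fold change of each of the 10 genes with all 6 libraries (line) and after dropping 1 library at a time (symbols). Id3 stays between 1.21 and 1.51, Id1 runs from 0.79 without CKO 2 to 1.76, and Bmp2, Bmpr1a and Bmpr1b have symbols on both sides of 0.

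Other genes of the pathway were read from a list of 59, of which 54 were in the table and 49 were tested; Bmp8b, Gdf7, Hjv, Sost and Dlx6 were not analysed here. By limma's adjusted p, 4 of the 49 were higher and 1 was lower in CKO, against 3.18% and 2.60% of all genes tested. The criterion of the study was met by 9 as higher and 3 as lower, against 5.30% and 5.10%. Every CKO library was above every WT library in 10 and below in 4, against 14.5% and 13.2%, so the counts of lower genes were near or under those of all genes. The counts by the criterion and by separation include Acvr2a and Smurf1, which reached a mean of 1 CPM only through CKO. They also include Chrdl2, which reached it only through WT. The median log2 fold change was 0.21.

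Among the 6 other ligands, Gdf10, a relative of Bmp3, rose from 11.6, 13.5 and 12.7 CPM in WT to 53.6, 53.4 and 50.3 CPM in CKO (log2 fold change 1.98, SE 0.22, limma adjusted p = 0.00134). Its libraries were tight within each group, and the call held in all 13 alternatives. Bmp3, a BMP that opposes osteogenic BMPs, fell from 46 reads in WT to 4 in CKO, a ratio of 0.0848 with a counting interval of 0.0222 to 0.232 (limma adjusted p = 0.00549). Bmp7, an osteogenic BMP, was at 1.45, 3.0 and 0.845 CPM in WT and at 6.88, 6.50 and 11.3 CPM in CKO and rose by limma (log2 fold change 1.77, adjusted p = 0.0474), a call lost in 10 of 11 alternatives. Bmp4, the most abundant ligand with Gdf5, was at 29.7, 37.5 and 37.2 CPM in WT and at 79.8, 14.4 and 83.2 CPM in CKO. CKO 2 alone lay below WT, and without it the log2 fold change went from 0.41 (limma adjusted p = 0.719) to 1.21 (limma adjusted p = 0.00395). Gdf5, a joint-forming ligand, was at 22.5 to 94.6 CPM in WT and 37.5 to 65.3 CPM in CKO.

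Of the 7 other receptors and co-receptors tested, 0 passed the adjusted threshold of limma. At an unadjusted limma p under 0.05 there were 3 higher and 1 lower, against 11.2% and 10.1% of all genes tested. Acvr1, a type I receptor, was at 5.80, 3.75 and 11.8 CPM in WT and at 13.8, 15.9 and 18.2 CPM in CKO, apart but with a limma adjusted p of 0.118. Acvr2a, a type II receptor, met the criterion of the study with 1 read in WT and 7 in CKO, no library having more than 3 reads. Its mean was 0.282 CPM in WT and 1.76 CPM in CKO, so it reached the 1 CPM needed for testing only through CKO. It was not tested when any CKO library was left out, and its place in these counts carries little weight. Endoglin (Eng), a co-receptor best known in endothelium, was at 22.5, 15.8 and 20.3 CPM in WT and at 30.3, 54.9 and 34.7 CPM in CKO (limma adjusted p = 0.0739). Of 9 other endothelial markers in the table, 6, Pecam1, Cdh5, Tek, Tie1, Emcn and Cldn5, had at most 3 reads in every library, and the summed level was 8.70 to 18.0 CPM in WT and 13.1 to 23.1 CPM in CKO. Rgma and the pseudoreceptor Bambi, at 22.0 to 32.6 and 43.5 to 92.1 CPM in WT, were at 11.5 to 19.9 and 22.0 to 113 CPM in CKO.

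Among 14 extracellular inhibitors and modulators, follistatin (Fst), which binds activins and BMPs, rose from 6.52, 5.25 and 3.38 CPM in WT to 15.1, 11.5 and 17.3 CPM in CKO (log2 fold change 1.39, SE 0.35, limma adjusted p = 0.0477), a call lost in 10 of 13 alternatives. The chordin relatives had lower values in CKO. Chrdl1 was at 39.1, 54.8 and 50.7 CPM in WT and at 24.1, 5.77 and 28.6 CPM in CKO (limma adjusted p = 0.0965), and Chrdl2 had 18 reads in WT and 1 in CKO (limma adjusted p = 0.0594). Without CKO 2 both passed, Chrdl1 with a smaller log2 fold change of -0.84 in place of -1.51 (limma adjusted p = 0.0409) and Chrdl2 with a limma adjusted p of 0.0374. Nbl1, of the DAN family of BMP antagonists, met the criterion of the study as higher (log2 fold change 1.18). It fell below the fold limit of that criterion without CKO 2 (0.92) and without WT 1 (0.998). Fstl1 and Twsg1 overlapped between groups. Fstl1 had a log2 fold change of 0.37 (limma adjusted p = 0.339), and of 0.59 without CKO 2, where it passed (limma adjusted p = 0.0386).

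Inside the cell, Smad9 was at 2.17, 3.75 and 2.53 CPM in WT and at 9.63, 5.77 and 5.20 CPM in CKO and Smurf1, a ubiquitin ligase for BMP Smads, had 3 reads in WT and 18 in CKO. Both met the criterion of the study and neither passed after adjustment (limma adjusted p = 0.185 and 0.0530). Among further response genes, Atoh8, a helix-loop-helix factor of cartilage, rose from 16.7, 12.0 and 15.2 CPM in WT to 46.8, 73.6 and 36.4 CPM in CKO (log2 fold change 1.72, SE 0.29, limma adjusted p = 0.00934). The groups were well apart, with CKO 2 the highest as for the Id genes, and the call was lost only without WT 2 (limma adjusted p = 0.0559).

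**Figure D5:**
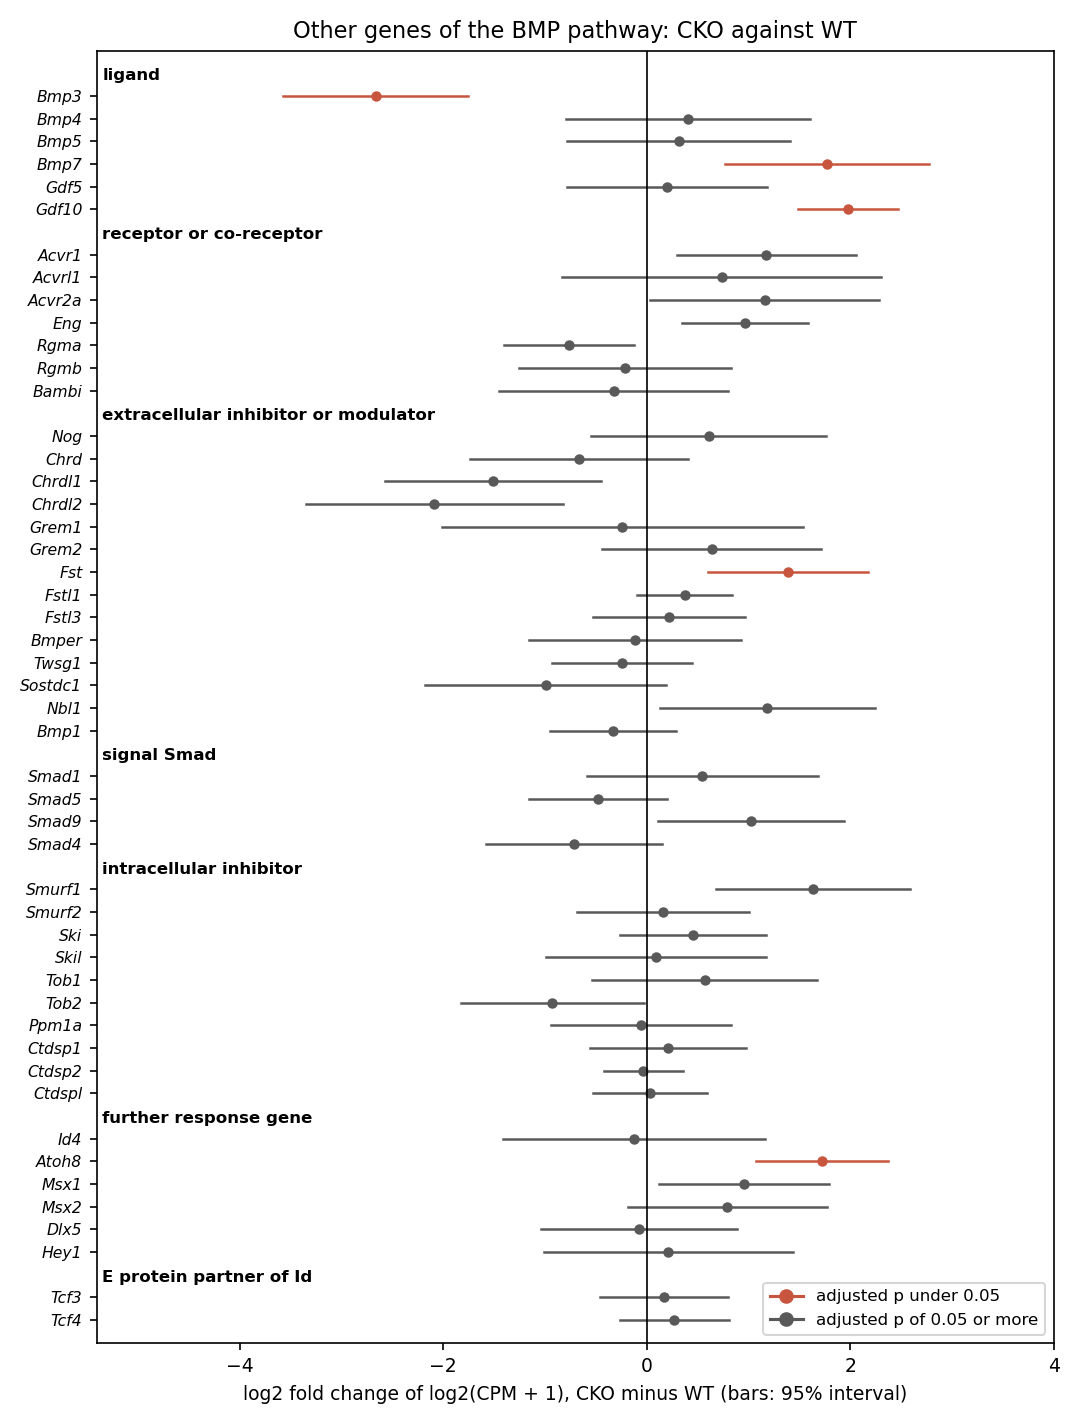
Log2 fold change of log2(CPM + 1), CKO minus WT, for the 49 other pathway genes tested, grouped by role, with 95% intervals as bars and limma calls in red. The 5 calls are Bmp3, Bmp7, Gdf10, Fst and Atoh8, and only Bmp3 lies below 0.

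Some lists of cell markers differed between WT and CKO in their summed level, while others overlapped. The lists were chosen with earlier results of these data known. They include genes that the study had named as changed in the same RNA-seq, Matn1 and Comp as lower and Spp1 and Mmp13 as higher. Their sums and calls are therefore a description and no independent support. Matn1 alone had a mean of 6841 CPM in WT and 515 CPM in CKO. The summed level of 9 chondrocyte markers was 16070 to 22019 CPM in WT and 4110 to 5316 CPM in CKO, and 7 of the 9 were called lower by limma. Hypertrophic markers summed to 1466 to 4591 CPM in WT and 12392 to 15208 CPM in CKO, and 1 of the 5 tested was called higher. That gene, Spp1 (osteopontin), was at 1037, 1095 and 3769 CPM in WT and at 11114, 11877 and 12045 CPM in CKO and made up most of the sum. Col10a1, Mmp13, Ibsp and Alpl overlapped between groups, and Ihh had 3 reads or fewer in every library. Of these, Mmp13 and Ibsp met the criterion of the study as higher (limma adjusted p = 0.118 and 0.166). Mmp13 was at 257, 260 and 650 CPM in WT and at 2155, 377 and 2301 CPM in CKO. For both genes, CKO 2 was the only CKO library inside the WT range. Perichondrial markers were at 3290 to 5330 CPM in WT and 1278 to 2545 CPM in CKO, lowest in CKO 2, and 1, Dcn, was called lower. Osteoblast markers were at 799 to 1343 and 497 to 895 CPM, sums that follow Col1a1 and Col1a2, of which Col1a2 was called lower. In the same list Bglap2 was at 50.7, 69.0 and 30.4 CPM in WT and at 290, 35.4 and 257 CPM in CKO and met the criterion of the study as higher. Muscle markers (43.5 to 175 CPM in WT, 96.2 to 103 CPM in CKO) and macrophage and osteoclast markers (151 to 384 and 287 to 310 CPM) overlapped between groups in their sums. Of the latter, Cd68 was called higher, at 8.70, 6.75 and 11.8 CPM in WT and at 76.3, 46.9 and 76.3 CPM in CKO (limma adjusted p = 0.00114), and Acp5 met the criterion of the study as higher. Erythroid markers were at 0.725 to 5.25 CPM in WT and 2.06 to 28.9 CPM in CKO, with the highest value in CKO 2, and epidermal markers at 23.7 to 47.8 and 62.8 to 127 CPM. The epidermal difference rested on Sbsn, at 2.90, 1.5 and 3.38 CPM in WT and at 83.9, 16.6 and 72.8 CPM in CKO, while Krt10 and Trp63 overlapped and Krt1, Krt15 and Lor had 3 reads or fewer in every library. The part of these differences in the levels of Id1, Id2, Id3, Smad7 and the other genes was not tested.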

How the data were processed

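Growth plate cartilage RNA was measured in 6 libraries, 3 WT and 3 CKO, each matched to its column by genotype and replicate number in the sample title. The authors deposited CPM, reads on a gene per 1000000 reads on all listed genes. The submitters' processing notes name cutadapt 2.5, HISAT2 and featureCounts 1.6.3, and the genome build, annotation and strand setting are not given in the sources used here. Library totals were between 1153871 and 1454094 reads, recovered because 100% of the values were whole multiples of 1 read (within 0.01 read).

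limma 3.58.1 (R 4.3.3) was fitted to log2(CPM + 1) for the 12155 genes averaging 1 CPM or more. Genotype was the only term, the trend option was on, and p-values were adjusted over all genes tested by the Benjamini-Hochberg method. Because the table holds CPM, the quasi-likelihood test of edgeR 4.0.16 (737 calls among 7704 genes) and DESeq2 1.42.0 served as alternatives on the recovered reads. The limma, edgeR and DESeq2 fits, and no other step, were also run on simulated counts.

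The members, the list of other pathway genes and the marker lists were chosen with earlier results of these data known. Pathway genes are named if they passed the adjusted threshold or the criterion of the study, or were among the 3 most abundant ligands, receptors or extracellular inhibitors. Ratios of pooled reads carry exact conditional binomial 95% intervals, which cover counting error only. Positions, exon lengths and near-identical copies (BLAST 2.17.0, at least 90% identity over at least 300 bases) came from GENCODE M21 on GRCm38, matched by Ensembl identifier.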

Additional observations from a re-analysis of the deposited data

How the results depend on the processing

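Id3 kept its direction and its call under all 13 alternatives. By DESeq2, 2 of the 10 genes were called in place of 1, and leaving out 1 library gave 1 to 2. The number of the 10 that met the criterion of the study ran from 1 (without CKO 2) to 6 (without CKO 3, where Bmpr2, Id2 and Smad6 were added) when 1 library was left out, against 3. Of the other pathway genes, 5 were called, and 3 were called with a pseudocount of 0.1, with TMM-scaled CPM, by DESeq2 and with the replicate block, with 2 to 9 when 1 library was left out. Over all genes, 703 were called, 385 with the replicate block and 212 (without WT 2) to 1298 (without CKO 2) when 1 library was left out. Same-numbered libraries did not deviate together (correlations of 0.038, -0.131 and -0.103 between the deviations of the WT and CKO libraries of replicates 1, 2 and 3). With 3 libraries per group and CKO 2 and WT 3 apart from the rest, these correlations cannot decide whether the numbers pair the libraries. Directions that reversed were of small differences. The log2 fold change of Bmp2 ran from -0.56 to 0.59 when 1 library was left out and was 0.27 by DESeq2, and that of Bmpr1a ran from -0.21 to 0.40 and was -0.034 with TMM-scaled CPM. Leaving out 1 library gave -0.047 to 0.30 for Bmpr1b, -0.012 to 1.21 for Bmp4, -0.97 to 0.19 for Bambi, -0.50 to 0.16 for Twsg1 and -0.23 to 0.79 for Gdf5, which was also -0.048 by edgeR with TMM, -0.043 with RLE and -0.037 by DESeq2. The cause of these changes was not tested. Scaling CPM by TMM factors moved the median of all genes by -0.041. Depth limits the receptors, ligands and inhibitory Smads, of which edgeR's own filter kept Bmpr1a alone.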

Other observations

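Of the E proteins that Id proteins bind, Tcf3 and Tcf4 did not pass the test, and Tcf12, with 1 read in WT and 1 in CKO, was not tested. Tcf4 was at 44.2, 63.8 and 58.3 CPM in WT and at 83.9, 49.1 and 71.1 CPM in CKO, and Tcf3 was at 17.4, 12.0 and 18.6 CPM in WT and at 17.2, 15.9 and 20.8 CPM in CKO, with overlap in both (limma adjusted p = 0.569 and 0.774). Msx1, a homeobox gene that responds to BMP and was chosen after its values were seen, was at 10.1, 4.5 and 8.45 CPM in WT and at 13.1, 12.3 and 21.7 CPM in CKO, apart but with a limma adjusted p of 0.177. Tob2, an inhibitor of BMP Smads also chosen after its values were seen, had 39 reads in WT and 19 in CKO (limma adjusted p = 0.220).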
